A study of Mus musculus with 12 samples.

Results

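The genes described here are globin messages and genes of the red cell lineage: the adult globins Hba-a1, Hba-a2 and Beta-s, the embryonic globins Hbb-y, Hba-x and Hbb-bh1, the transcription factor Klf1, the heme enzyme Alas2, the transferrin receptor Tfrc and the carbonic anhydrase Car2. They were chosen by symbol, 10 of the 23420 genes of the table, and are described library by library. The 12 libraries came from mouse fetal liver cells that lack lineage markers and carry c-Kit, sorted by presence or absence of the paired immunoglobulin-like receptor (PIR), with 100 cells in each tube. By source name they were of E14.5 or E12.5, and every group holds both stages. The groups, of 3 libraries each, were PIR+ KO, PIR- KO, PIR+ wild type (wt) and PIR- wt. The labels name no knocked-out gene, strain, age of the adults or source animal, so the target could not be checked. Replication is between these tubes and may be technical. For the adult globins, the p-values of the main limma fit rest on a spread well below the one between tubes of a group. Values are normalized molecule counts as deposited by the authors.

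Hemoglobin is built from alpha-like and beta-like globin chains that each hold a heme group. In the mouse, primitive red cells of the yolk sac carry embryonic chains, zeta (Hba-x), epsilon-y (Hbb-y) and beta-h1 (Hbb-bh1), and definitive red cells made in the fetal liver carry the adult alpha and beta chains. Klf1 switches on adult beta globin and many other red cell genes, Alas2 makes the first intermediate of heme in red cell precursors, Tfrc takes up iron, and Car2 interconverts carbon dioxide and bicarbonate. Maturing red cells carry lineage markers, which a lineage-negative sort is meant to leave behind.

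The alpha-like genes lie in 1 cluster on chromosome 11 (GRCm38, GENCODE M21): Hba-x at 32276400 to 32278116, Hba-a1 at 32283511 to 32284465 and Hba-a2 at 32296489 to 32297298, all on the plus strand. The beta-like genes lie on the minus strand of chromosome 7, with Beta-s, listed in RefSeq as a synonym of Hbb-bs, at 103826534 to 103828096, Hbb-bh1 at 103841637 to 103843164 and Hbb-y at 103851749 to 103853216. Over their coding sequences, Hba-a1 and Hba-a2 were identical at 428 of 429 bases, and Hbb-bs and its neighbour Hbb-bt at 443 of 444, so the split of reads within each pair is uncertain. The embryonic genes were easier to tell apart, with 74.3% identical bases between Hbb-bs and Hbb-y and 62.0% between Hba-a1 and Hba-x. Klf1 is on chromosome 8, Alas2 on chromosome X, Tfrc on chromosome 16 and Car2 on chromosome 3.

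Promoters are shown for 5 genes that mark the patterns described below: Hba-a1, Beta-s and Alas2, which were high in the same libraries, and Hba-x and Hbb-y, which were high in a single one. Each is the 250 bases before the RefSeq start of transcription on GRCm38.p6, read 5′ to 3′ on the gene's own strand: chr11:32283422-32283671 (+) for Hba-a1, chr7:103827929-103828178 (-) for Beta-s, chr11:32276350-32276599 (+) for Hba-x, chr7:103853208-103853457 (-) for Hbb-y and chrX:150547167-150547416 (+) for Alas2. GENCODE places some of these starts earlier than RefSeq does. Capitals mark every match, on either strand, to CACCC, the core of Klf1 sites, GATAA, the core of Gata1 sites, CCAAT and TATAA.
Hba-a1: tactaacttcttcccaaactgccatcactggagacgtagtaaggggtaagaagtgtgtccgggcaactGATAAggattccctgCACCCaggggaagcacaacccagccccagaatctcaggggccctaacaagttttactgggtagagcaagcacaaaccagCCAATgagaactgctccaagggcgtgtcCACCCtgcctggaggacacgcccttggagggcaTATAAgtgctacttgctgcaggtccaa
Beta-s: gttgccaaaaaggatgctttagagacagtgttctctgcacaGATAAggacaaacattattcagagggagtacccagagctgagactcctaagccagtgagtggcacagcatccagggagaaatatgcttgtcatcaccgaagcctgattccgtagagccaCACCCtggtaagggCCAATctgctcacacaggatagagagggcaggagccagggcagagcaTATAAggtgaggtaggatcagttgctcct
Hba-x: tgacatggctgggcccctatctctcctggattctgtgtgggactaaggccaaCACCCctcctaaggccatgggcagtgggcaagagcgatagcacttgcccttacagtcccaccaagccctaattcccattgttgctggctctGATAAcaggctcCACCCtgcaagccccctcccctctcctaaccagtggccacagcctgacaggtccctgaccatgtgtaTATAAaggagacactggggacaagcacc
Hbb-y: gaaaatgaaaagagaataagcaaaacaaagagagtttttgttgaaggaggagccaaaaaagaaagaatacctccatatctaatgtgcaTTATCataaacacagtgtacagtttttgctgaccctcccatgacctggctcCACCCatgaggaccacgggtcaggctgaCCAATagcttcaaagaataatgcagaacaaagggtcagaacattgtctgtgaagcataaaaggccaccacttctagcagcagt
Alas2: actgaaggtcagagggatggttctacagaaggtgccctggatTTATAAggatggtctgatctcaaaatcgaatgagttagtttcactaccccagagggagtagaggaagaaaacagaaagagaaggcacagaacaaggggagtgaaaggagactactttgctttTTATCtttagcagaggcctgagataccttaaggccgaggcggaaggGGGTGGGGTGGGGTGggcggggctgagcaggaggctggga

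GATAA was found in the promoters of Hba-a1, Hba-a2, Beta-s, Hba-x, Hbb-y, Alas2 and Klf1, 7 of the 8 members with a RefSeq entry, and in 22.6% of all 32851 promoters of the same length. CACCC was found in all 8 members' promoters, but also in 52.0% of all promoters. CCAAT stood at -88 in Hba-a1 and -76 in Beta-s, counting the base before the start as -1, and is held by 33.8% of promoters. TATAA stood at -27, -29 and -28 in Hba-a1, Beta-s and Hba-x, and was not in these letters in Hbb-y. It is held by 22.8% of promoters, and its 2 matches in Alas2 overlap each other, on opposite strands. The RefSeq entries of Hba-a2 and Hba-a1, which run on past the start and so are longer than the stretches printed, were identical at 297 of 297 compared bases when shifted by 3. Hbb-bh1 and Car2 are named only. These matches describe the letters and are no record of binding.

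Library sums ran from 155374 to 284648, 1 molecule was worth 0.49 to 0.775 units, and 9881 to 11200 genes were above 0. The receptor genes Pira2 and Lilrb3 followed the titles, at 9.3 to 35.7 and 6.2 to 14.3 in PIR+ libraries and at 0 in every PIR- library. In 6 of the 12 libraries, however, the markers field of the labels gives the PIR sign opposite to the title. The source name gives the stage as E14.5 wherever that field reads PIR- and as E12.5 wherever it reads PIR+, so stage and markers field cannot be told apart. By source name, replicates 1 to 3 were E14.5, E14.5 and E12.5 in PIR+ KO, E12.5, E14.5 and E14.5 in PIR- KO, E12.5, E12.5 and E14.5 in PIR+ wt, and E14.5, E12.5 and E12.5 in PIR- wt. The markers field lists IL7Ra for all libraries, the series title for PIR+ cells alone, and Il7r was 9.7 to 24.4 and Kit 18.6 to 56.3 over the 12 libraries.

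Adult globin messages were abundant in 5 libraries and scarce in 6, and this split ran across the groups instead of between them. Hba-a1 was 377.7, 11 and (rounded) 13 in PIR+ KO libraries, 547.3, 14.4 and 18.0 in PIR- KO, 359.6 in PIR+ wt replicate 3 with 12.4 and 8.2 in replicates 1 and 2, and 62.6, 481.4 and 604.1 in PIR- wt. The high libraries were thus PIR+ KO 1, PIR- KO 1, PIR+ wt 3 and PIR- wt 2 and 3, while PIR- wt 1 lay in between, and every group's range overlapped with every other's. Hba-a2, the duplicate alpha gene, was 266.3, 6.6 and 14.1 in PIR+ KO, 443.0, 13.8 and 13.6 in PIR- KO, 12.4, 10.2 and 245.1 in PIR+ wt, and 75.3, 513.9 and 485.4 in PIR- wt. Beta-s, the adult beta chain, was 298.9, 14.0 and 55.8 in PIR+ KO, 820.2, 14.6 and 18.4 in PIR- KO, 5.1, 7.9 and 531.5 in PIR+ wt, and 77.4, 780.2 and 793.3 in PIR- wt. The same 5 libraries were high for all 3 genes. PIR- wt 1 was intermediate for all 3, and PIR+ KO 3 for Beta-s at 55.8, without a like level of either alpha gene. No library was at 0 for any of the 3 genes.

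Hbb-b1 and Hbb-b2, adult beta genes that are not among the 10 and can share reads with Beta-s, followed the same split. Hbb-b2 was 205.0, 9.9 and 9.4 in PIR+ KO, 318.9, 9.4 and 5.1 in PIR- KO, 5.1, 6.6 and 248.8 in PIR+ wt, and 30.5, 430.5 and 445.3 in PIR- wt. Hbb-b1 reached 28.7 to 58.8 in the 5 libraries and 0 to 2.4 in the other 7.

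**Figure D1:**
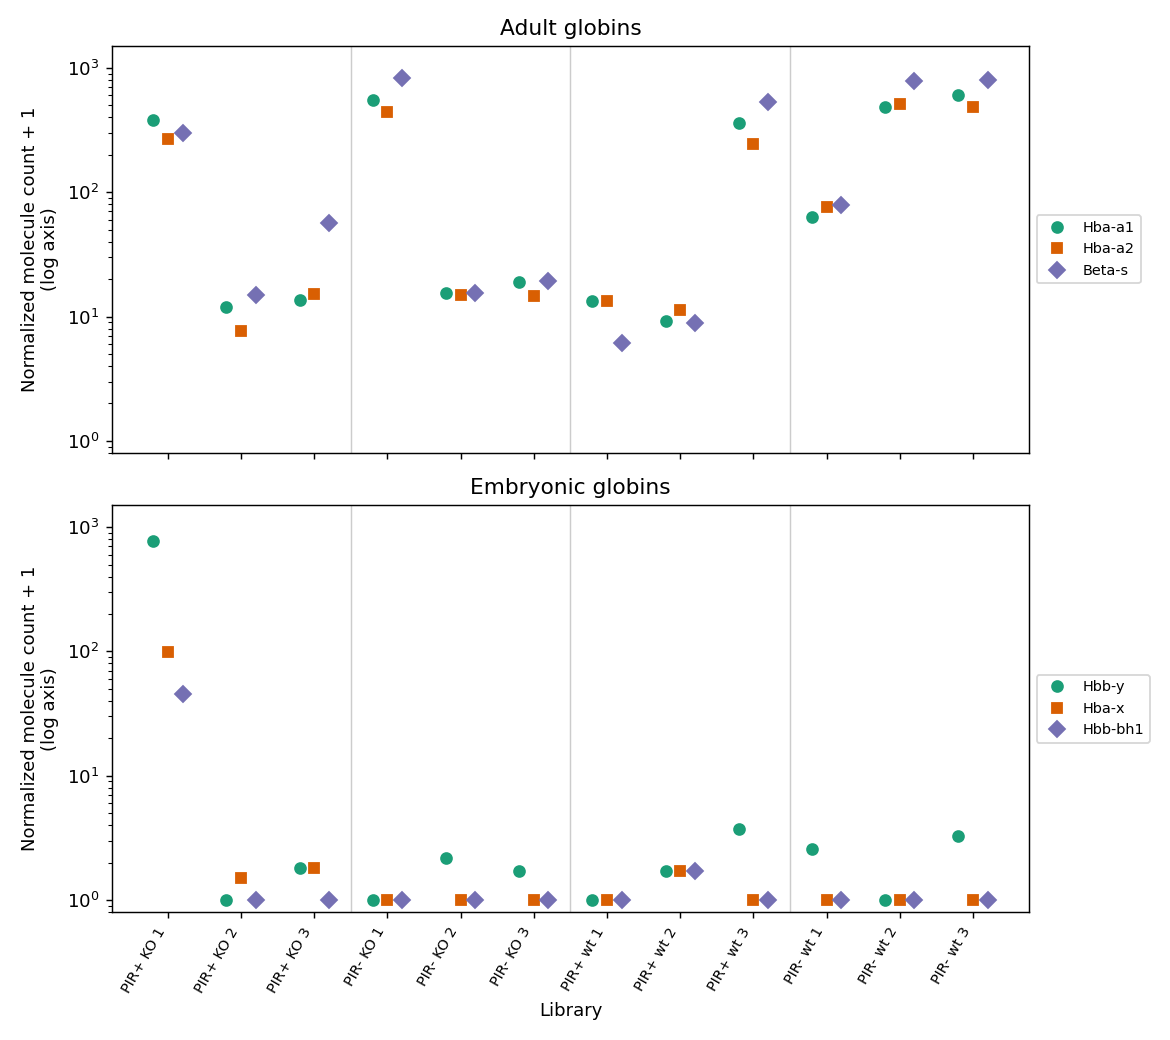
Normalized molecule count plus 1 (log axis) of the adult globins Hba-a1, Hba-a2 and Beta-s (top) and the embryonic globins Hbb-y, Hba-x and Hbb-bh1 (bottom) in each of the 12 libraries, grouped by title, 1 point a gene and library. The adult globins are high in 5 libraries spread over all 4 groups, whereas the embryonic globins are high in PIR+ KO 1, where Hbb-y reaches 773.1.

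Embryonic globins were high in a single library. Hbb-y was 773.1 in PIR+ KO 1, against 0 and 0.8 in the other PIR+ KO libraries, 0 to 1.2 in PIR- KO, 0 to 2.7 in PIR+ wt and 0 to 2.3 in PIR- wt. Hba-x was 98.8 in PIR+ KO 1 and 0 to 0.8 in the other 11 libraries, and Hbb-bh1 was 44.8 there and 0 to 0.7 elsewhere. Levels of 0.5 to 0.8 correspond to about 1 molecule in these tubes. Hbb-y ranked 27 of all genes by level in PIR+ KO 1, above Hba-a1 at rank 108. The other 4 libraries rich in adult globin had embryonic sums of 0 to 2.7. With 1 library high, these 3 genes differ between groups only through it, and none passed the filter for testing.

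Taken over the 6 globins, the messages made up 0.783% of PIR+ KO 1, with 0.0148% and 0.0295% of the other PIR+ KO libraries. The highest shares were 1.1% in PIR- wt 2, 1.07% in PIR- KO 1 and 1.01% in PIR- wt 3, and PIR+ wt 3 had 0.449%. Embryonic messages were 49.3% of the globin messages in PIR+ KO 1, and 0 to 0.237% in the other 4 rich libraries. Within PIR+ KO 1 the beta-like side was more embryonic than the alpha-like side. Hbb-y and Hbb-bh1 made up 73.2% of the sum of Hbb-y, Hbb-bh1 and Beta-s, and Hba-x made up 13.3% of the sum of Hba-x, Hba-a1 and Hba-a2. The sum of Hba-a1 and Hba-a2 over the sum of Beta-s, Hbb-b1 and Hbb-b2 gave 1.21 in PIR+ KO 1 and 0.746 to 0.840 in the other 4 rich libraries. These are ratios of molecules primed at the poly(A) tail and were not divided by length. In tubes of pooled cells, a lower share of cells with a message and less of it in each cell cannot be told apart.

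The mean globin sum carried an SD larger than itself in 3 groups and smaller than itself in PIR- wt. It was 658.6 ± 1040 in PIR+ KO, 635.1 ± 1018 in PIR- KO, 399.1 ± 640.7 in PIR+ wt and 1292 ± 933.1 in PIR- wt (SD, n = 3 each). Leaving out the richest library of a group changed its mean to 58.05 in PIR+ KO, 47.35 in PIR- KO and 29.15 in PIR+ wt, and to 996.2 in PIR- wt. In the first 3 groups, therefore, 1 library set the mean.

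The split followed the conflict in the labels. All 5 globin-rich libraries were among the 6 whose markers field gives the other PIR sign than the title, and the sixth of these, PIR+ KO 2, had low globins. Adult globin sums (Hba-a1, Hba-a2 and Beta-s) ran from 31.6 to 1882.8, with a median of 1456, in these 6 libraries, against 26.3 to 215.3, with a median of 46.4, in the 6 libraries where title and markers field agree. The receptor genes did not share this split, and neither did library sums, which ran from 161351 to 253582 in the libraries with the conflict and from 155374 to 284648 in the others. Within the libraries that show the conflict, the sum was 1136.2 in PIR+ wt 3, against 1775.5 and 1882.8 in PIR- wt 2 and 3. Within the libraries that do not, it was 29.9 and 26.3 in PIR+ wt 1 and 2, against 215.3 in PIR- wt 1. The wild-type PIR+ libraries were thus below the PIR- ones on either side of the split. In KO libraries the sums with the conflict were 942.9 and 31.6 for PIR+ KO 1 and 2, against 1810.5 for PIR- KO 1. Without the conflict they were 82.4 for PIR+ KO 3, against 42.8 and 50 for PIR- KO 2 and 3, the opposite order.

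No member was called between the stages given by the source names, and this depended on single libraries. Adult sums had a median of 132.7 over the 6 E14.5 libraries and 929.0 over the 6 E12.5 libraries, and each stage held both rich and poor libraries. The embryonic globins were high in a library given as E14.5. In the fit with group and stage, limma called 0 of the 5 tested members (0% of 4542 genes called), and 1 of them, Beta-s, had an unadjusted p under 0.05, at a log2 difference of -0.62 for E14.5 over E12.5 (limma adjusted p = 0.9996). Without PIR+ wt 3, all 3 adult globins were called lower at E14.5, by -1.92 for Hba-a1, -2.02 for Hba-a2 and -2.88 for Beta-s (limma adjusted p = 1.09e-12, 2.12e-14 and 1.32e-33), among 6 genes called in all. Without PIR+ KO 1 they were called at -0.85, -1.08 and -1.11, among 4 genes. Without PIR+ wt 1 or PIR+ wt 2, Hba-a2 (-0.72 and -0.77) and Beta-s (-1.13 and -1.02) were called, among 3 genes each, and without PIR- KO 1 the values were 1.42, 1.06 and 1.03 and not called. These p-values rest on limma's prior and understate the globins' own spread. In the fit to all 12 libraries the SE of the stage difference was 0.30 for Hba-a1, whose SD between libraries of the same group was 2.65. The calls with a library left out were not repeated with each gene's own spread, so they are no measure of a stage effect.

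Alas2 was near the limit of detection and followed the adult globins. It was 6.7, 0 and 0 in PIR+ KO, 7.9, 0 and 0 in PIR- KO, 0, 0 and 4.1 in PIR+ wt, and 0, 6.2 and 5.4 in PIR- wt. It was above 0 in the 5 globin-rich libraries and in no other, and groups overlapped. Slc4a1, the anion exchanger band 3 of the red cell membrane, chosen after its values were seen, did nearly the same, at 2.0 to 13.8 in the 5 libraries and 0 to 0.7 elsewhere.

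Klf1 did not follow that split. It was 7.3, 2.0 and 7.6 in PIR+ KO, 1.1, 0.6 and 0 in PIR- KO, 3.2, 0.7 and 0 in PIR+ wt, and 0 in all 3 PIR- wt libraries. The PIR+ KO libraries lay above every PIR- KO library and overlapped with PIR+ wt, and 4 of the 5 globin-rich libraries held 0 or 1.1. With values this low Klf1 failed the filter. In a fit with no minimum value it was called higher in PIR+ than in PIR- KO libraries, by 2.00 on the log2(value + 1) scale (limma adjusted p = 0.0145). Gata1, the lineage's master regulator and chosen, like Epor, after its values were seen, was 3.6, 1.0 and 2.3 in PIR+ KO, 0.5, 1.2 and 0 in PIR- KO, 0.6, 0.7 and 0 in PIR+ wt and 0 throughout PIR- wt. Epor, the erythropoietin receptor, was 0.5 to 3.6 in PIR+ KO and 0 to 1.5 in every other group. Other low erythroid factors were mixed. Gata2, Tal1 and Gfi1b were also highest by group mean in PIR+ KO. Zfpm1 was so only narrowly, with a mean of 5.43 in PIR+ KO (2.4 to 8.4) against 5.17 in PIR- KO (4.4 to 5.8). Nfe2, however, was 3.6 to 5.3 in PIR+ KO against 3.9 to 10.2 in PIR+ wt.

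**Figure D2:**
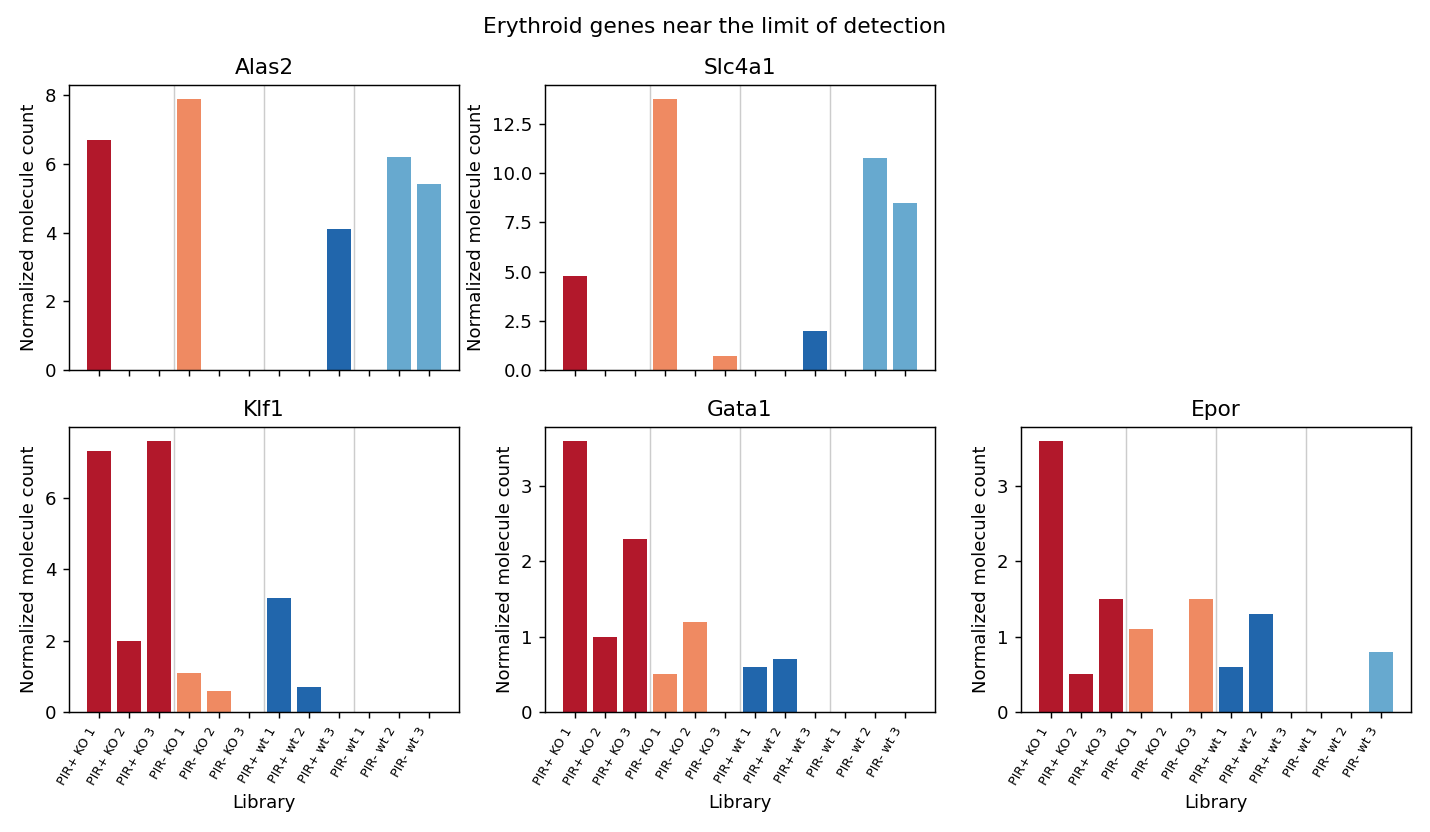
Normalized molecule counts of Alas2, Slc4a1, Klf1, Gata1 and Epor in each of the 12 libraries, 1 bar a library, coloured by group, each panel with its own axis from 0. Alas2 and Slc4a1 are highest in the 5 globin-rich libraries, while Klf1 reaches 7.3 and 7.6 in PIR+ KO 1 and 3 and is 0 in the PIR- wt libraries.

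Of the 10 members, 5 reached a value of 10 in at least 3 libraries and were tested: Hba-a1, Hba-a2, Beta-s, Tfrc and Car2. In wild type, limma called the 3 adult globins lower in PIR+ than in PIR- cells, 3 of 5 members against 44.4% of all 4542 genes called in either direction, 3.72% lower and 40.6% higher. After median-of-ratios scaling the calls over all genes were 524 higher and 501 lower, in place of 1846 and 169, and the globin calls held. The log2 fold change was -2.90 ± 0.64 for Hba-a1 (SE, limma adjusted p = 1.46e-04), -3.01 ± 0.60 for Hba-a2 (adjusted p = 2.65e-05) and -3.57 ± 0.67 for Beta-s (adjusted p = 8.79e-06). The groups nonetheless overlapped, because PIR+ wt 3 was above PIR- wt 1, and the exact two-sided permutation test over the 6 libraries gave p = 0.2 for each gene, where 0.1 is the smallest it allows. None of the 10 members was free of overlap in this comparison, against 52% of the genes tested, 47.6% with PIR+ above PIR- and 4.36% below. The authors' deposited table gives p = 0.184 for Hba-a1, 0.0803 for Hba-a2 and 0.244 for Beta-s, and does not say whether these are adjusted.

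The calls depended on how the spread was estimated. The SD between libraries of the same group was 2.81 for Beta-s, 2.65 for Hba-a1 and 2.46 for Hba-a2 on the log2 scale, and the adult globins Beta-s, Hbb-b2, Hba-a1, Hbb-b1 and Hba-a2 held ranks 1 to 5 of 4542 genes. The next gene, Mt2, had 1.20 and the median gene 0.314. limma's trended prior, with 93.6 prior degrees of freedom against 8 residual ones, replaced these SDs by 0.820 for Beta-s, 0.779 for Hba-a1 and 0.730 for Hba-a2. With a robust prior, chosen after seeing the data, the adjusted p-values for PIR+ against PIR- in wild type were 0.297 for Hba-a1, 0.251 for Hba-a2 and 0.233 for Beta-s. With each gene's own spread they were 0.303, 0.257 and 0.240 in the same order of genes. Among the 6 libraries where title and markers field agree, the log2 fold changes were -2.52, -2.64 and -3.41, also with PIR+ below PIR-. There PIR- wt 1 is alone in its group, so this direction is not replicated. Hepatocyte messages were highest in PIR- wt 3, and without it the fold change of Hba-a1 was -2.31 (limma adjusted p = 5.55e-06).

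**Figure D3:**
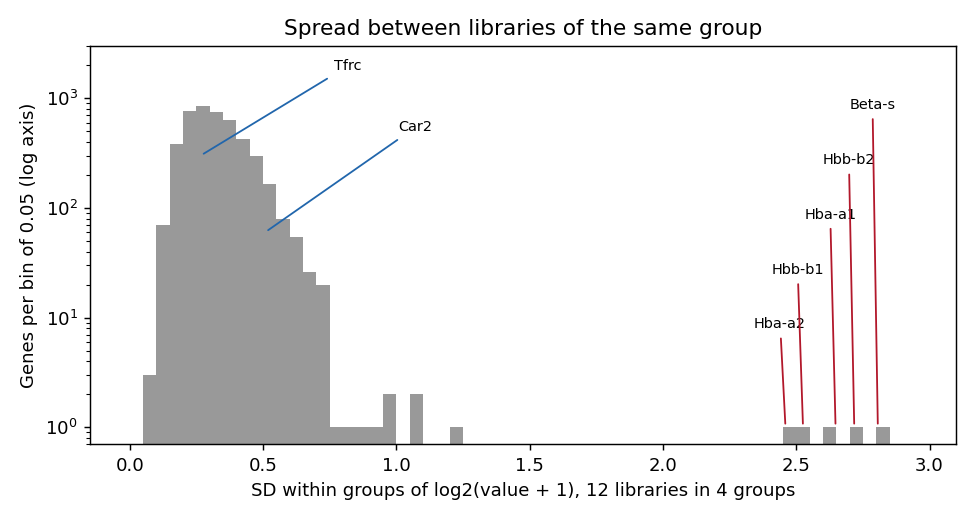
Number of genes (log axis) by the SD of log2(value + 1) between libraries of the same group, for the 4542 genes tested. The 5 adult globin genes lie between 2.46 and 2.81, apart from all other genes, while Tfrc has 0.265 and Car2 0.508, which is rank 325 of 4542.

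Between the KO subsets the globins were not called. The log2 fold change of PIR+ over PIR- was -0.46 ± 0.64 for Hba-a1, -0.55 ± 0.60 for Hba-a2 and 0.01 ± 0.67 for Beta-s (SE, limma adjusted p = 0.596, 0.494 and 0.990). Beta-s changed sign with scaling, to -0.38 after median-of-ratios scaling. With PIR+ KO 1 left out the values became -2.09 for Hba-a1 (limma adjusted p = 1.07e-05), -2.10 for Hba-a2 (3.39e-06) and -1.11 for Beta-s (0.0623). With PIR- KO 1 left out they became 1.21 (0.213), 1.09 (0.222) and 1.87 (0.0429). The direction thus followed which of these 2 globin-rich libraries was kept.

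Tfrc and Car2 were the members that separated the KO subsets, in opposite directions. Tfrc, the receptor that brings transferrin-bound iron into dividing cells, was 12.7, 11.8 and 20.5 in PIR+ KO libraries, against 38.1, 28.8 and 38.2 in PIR- KO libraries. The groups did not overlap, and Tfrc fell by 1.20 ± 0.24 on the log2 scale (SE, limma adjusted p = 5.08e-05). Car2 was 40.0, 33.3 and 26.6 in PIR+ KO libraries, against 11.1, 6.3 and 16.2 in PIR- KO libraries. It rose by 1.56 ± 0.28, without overlap (limma adjusted p = 7.42e-06). They were the only members called of the 5 tested, at a background of 25.5% of genes called (22.5% higher, 2.97% lower) and 39.1% free of overlap (35.7% higher, 3.43% lower). Klf1 and, through values of about 1 molecule, Hba-x were also free of overlap. Most genes were higher in PIR+ libraries on the deposited scale, with a median log2 fold change over all genes of 0.39 here and 0.51 in wild type, so Tfrc moved against that shift.

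Both calls held on the other scales. After median-of-ratios scaling, which brings the median of all genes to 0.01, the fold changes were -1.58 for Tfrc (limma adjusted p = 4.77e-07) and 1.18 for Car2 (adjusted p = 0.00437). Without the 5 globin-rich libraries they were -1.04 (adjusted p = 0.0120) and 1.46 (adjusted p = 6.26e-04), so the difference was present where globins were low. Tfrc was called in 27 of 28 settings. The exception, at -0.67, was the fit to the 6 libraries where title and markers field agree, which leaves PIR+ KO 3 alone in its group. Car2 was also called in 27 of 28, the exception being the fit with that agreement as a term and each gene's own spread, with 1.41 (adjusted p = 0.0617).

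In wild type neither gene was called between the subsets. Tfrc was 31.1, 23.0 and 29.8 in PIR+ wt, against 24.9, 28.7 and 24.8 in PIR- wt, and its fold change of 0.09 ± 0.24 (limma adjusted p = 0.777) turned to -0.41 after median-of-ratios scaling. Car2 was 20.9, 15.1 and 19.7 in PIR+ wt, against 6.9, 11.6 and 20.2 in PIR- wt, a fold change of 0.60 ± 0.28 (limma adjusted p = 0.0771). Without PIR- wt 3, the library with the most hepatocyte messages, it was 0.96 (adjusted p = 0.00655), and after median-of-ratios scaling it was 0.12 (adjusted p = 0.817). Without the 5 globin-rich libraries the fold change of Car2 was 1.25. There PIR- wt 1, at 6.9, was alone in its group, so this value is not replicated. The authors' deposited table gives p = 0.145 for Tfrc and 0.933 for Car2 in wild type.

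**Figure D4:**
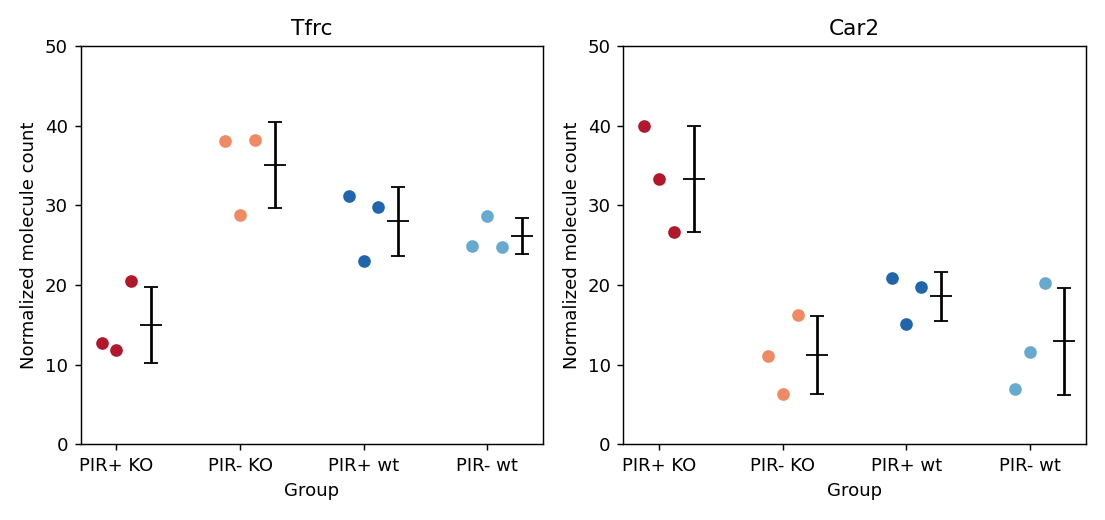
Normalized molecule counts of Tfrc (left) and Car2 (right) by group, 1 point a library in the order of replicate number, with mean and SD (n = 3) beside them. PIR+ KO libraries are lowest for Tfrc, at 11.8 to 20.5, and highest for Car2, at 26.6 to 40.0.

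By group mean, Tfrc ran in the order PIR+ KO, PIR- wt, PIR+ wt and PIR- KO, at 15 ± 4.78, 26.1 ± 2.22, 28 ± 4.35 and 35.0 ± 5.40 (SD, n = 3 each). The middle neighbours PIR- wt and PIR+ wt overlapped, as did PIR+ wt and PIR- KO. Car2 ran in the order PIR- KO, PIR- wt, PIR+ wt and PIR+ KO, at 11.2 ± 4.95, 12.9 ± 6.75, 18.6 ± 3.06 and 33.3 ± 6.70. Its lower 3 groups overlapped with each other, and PIR+ KO lay above all of them.

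Between KO and wild type, PIR+ cells differed in Tfrc alone among the tested members. The PIR+ KO libraries, at 11.8 to 20.5, lay below the PIR+ wt libraries, at 23.0 to 31.1, a log2 fold change of -0.88 ± 0.24 (SE, limma adjusted p = 0.0467), 1 of 5 members against 0.903% of all genes called (0.44% higher, 0.462% lower) and 11.1% free of overlap (8.04% higher, 3.04% lower). This call is marginal. It passed in 13 of 28 settings, with adjusted p-values from 0.00505 to 0.573 and the same sign in each, and leaving out PIR+ wt 1 gave 0.296, PIR+ wt 2 0.0501, PIR+ wt 3 0.178, PIR- KO 2 0.0604, PIR+ KO 1 0.323 and PIR+ KO 2 0.288. The authors' deposited table gives p = 0.00134 for Tfrc. Car2 was higher in each PIR+ KO library than in each PIR+ wt library but was not called, at 0.80 ± 0.28 (limma adjusted p = 0.274), with p = 0.0116 in the authors' deposited table. Klf1 was not tested here and its groups overlapped. The authors' deposited table, whose p-values were made by their DESeq2 test, gives 0.0481 for it. The globins were not called, at 0.15 for Hba-a1, -0.09 for Hba-a2 and 1.05 for Beta-s (adjusted p = 0.992, 0.996 and 0.899). Leaving out PIR+ wt 3 changed Beta-s to 3.11 (adjusted p = 4.61e-04), and leaving out PIR+ KO 1 changed Hba-a1 to -1.48 (adjusted p = 0.0423) and Hba-a2 to -1.64 (adjusted p = 0.00636).

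In PIR- cells, limma called the adult globins lower in KO than in wild type, 3 of 5 members against 0.22% of all genes called lower, 1.08% higher and 1.3% in either direction. The log2 fold change was -2.28 ± 0.64 for Hba-a1 (SE, limma adjusted p = 0.0424), -2.55 ± 0.60 for Hba-a2 (adjusted p = 0.0059) and -2.54 ± 0.67 for Beta-s (adjusted p = 0.0235). The groups overlapped, since PIR- KO 1 was well above PIR- wt 1 for all 3 genes, with exact permutation p = 0.3, 0.2 and 0.4. The calls were lost with a robust prior (adjusted p = 0.689, 0.610 and 0.670) and after median-of-ratios scaling. They were also lost without PIR- KO 2 (adjusted p = 0.410, 0.180 and 0.357) and without PIR- KO 3 (0.663, 0.530 and 0.635), and for Hba-a1 and Beta-s without PIR+ KO 3 (0.121 and 0.114). Tfrc, at 28.8 to 38.2 in PIR- KO against 24.8 to 28.7 in PIR- wt, did not overlap, as for 15.4% of genes (14.4% higher, 1.01% lower), and was not called (0.40 ± 0.24, limma adjusted p = 0.449). Car2 was not called (-0.16 ± 0.28, adjusted p = 0.841).

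The difference between these KO effects, PIR+ minus PIR-, was called for 2 of 5 members, against 0.572% of all genes (0.11% higher, 0.462% lower). It was 3.59 ± 0.95 for Beta-s (SE, limma adjusted p = 0.0483) and -1.29 ± 0.34 for Tfrc (adjusted p = 0.0498). For Hba-a1, Hba-a2 and Car2 it was 2.44, 2.46 and 0.96 (adjusted p = 0.421, 0.345 and 0.637). Both calls sit at the threshold. Beta-s was called in 11 of 26 settings and lost with a robust prior (adjusted p = 0.981). It was also lost without PIR+ wt 1 (adjusted p = 0.409), PIR+ wt 2 (0.143), PIR+ KO 3 (0.212), PIR- KO 2 (0.263) or PIR- KO 3 (0.702), and it reached 5.64 without PIR+ wt 3 and 5.44 without PIR- KO 1. Tfrc was called in 9 of 27 settings, the robust prior among them (adjusted p = 0.0334). With 1 library left out it was -1.52 to -1.14, and called only without PIR+ KO 3 (adjusted p = 0.00873) or PIR- KO 2 (0.0455). The comparisons of KO with wild type and of PIR+ with PIR- use the same libraries, so their results are not independent.

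The other genes of the lineage that could be tested were few, and their lists were chosen with earlier results of these data known. Of heme synthesis, Cpox, an enzyme of the late steps, was 0.95 higher in PIR+ than in PIR- KO libraries (limma adjusted p = 0.0145). That call was lost once libraries were scaled by median of ratios (0.57, adjusted p = 0.226), and in wild type the difference was 0.01 (adjusted p = 0.977).

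Of 16 erythroid transcription factors and globin regulators 7 were tested. Lmo2, a bridge in the Gata1 and Tal1 complex that stem cells also use, was 42.4, 29.4 and 39.5 in PIR+ KO, against 7.9, 9.2 and 4.4 in PIR- KO, and 20.3, 23.0 and 34.6 in PIR+ wt, against 3.2, 4.6 and 3.9 in PIR- wt. From PIR- to PIR+ libraries, the comparison used for all of these factors, Lmo2 rose by 2.26 in KO and 2.43 in wild type. Cbfa2t3, a corepressor of the same complex, rose by 1.30 in KO and 1.68 in wild type. E2f2, a cell cycle factor, fell by 1.89 in KO and 2.89 in wild type, and these 3 held after scaling. Zbtb7a, a repressor of fetal globin in human cells, was higher on the deposited scale in both genotypes. It was not called after scaling (adjusted p = 0.179 in KO and 0.428 in wild type). Myb fell by 1.05 in KO and was called in wild type only after scaling (-0.93, adjusted p = 3.61e-06). Bcl11a, which silences embryonic globin genes, was 0.53 higher in PIR+ KO than in PIR- KO libraries (adjusted p = 0.0367), and 0.14 after scaling (adjusted p = 0.519). In all, 4 of 7 were higher and 2 lower in KO, and 3 higher and 1 lower in wild type. Over all genes, 22.5% were called higher and 2.97% lower in KO, against 40.6% and 3.72% in wild type. The list's median was 0.53 in KO and 0.51 in wild type, against 0.39 and 0.51 over all genes. After scaling 2 were higher and 2 lower in each genotype. Of all 4542 genes, 369 were then higher and 341 lower in KO, and 524 higher and 501 lower in wild type.

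Of the 5 tested genes of iron uptake and storage, the ferritin chains Fth1 and Ftl1 were higher in PIR+ than in PIR- libraries of both genotypes. The rise was 0.66 and 0.85 in KO and 0.84 and 0.96 in wild type, and both stayed called after scaling. Ncoa4, which delivers ferritin for breakdown, rose likewise by 1.11 in wild type and was 0.53 in KO (limma adjusted p = 0.105). Tfrc was lower in PIR+ than in PIR- KO libraries. The list thus gave 2 higher and 1 lower in PIR+ within KO, and 3 higher within wild type. Over all genes 22.5% were called higher and 2.97% lower in KO, and 40.6% higher and 3.72% lower in wild type. The list's median was 0.53 in KO and 0.84 in wild type, where the median of all genes was 0.39 and 0.51. Gpx1, a peroxidase found in many cell types, was 450.0 to 629.6 in PIR+ KO, against 160.5 to 196.2 in PIR- KO, and 439.8 to 562.7 in PIR+ wt, against 120.1 to 151.3 in PIR- wt, a rise of 1.53 in KO and 1.95 in wild type that held after scaling. Of the 5 tested enzymes and late products 3 were higher in KO, Car2, Gpx1 and Prdx2, and 2 in wild type, Gpx1 and Bnip3l, but Prdx2 and Bnip3l were not called after scaling, and Cat, catalase, was then lower in both, by 0.97 in KO and 0.83 in wild type. Of the 4 tested red cell membrane and surface genes, Gypc and Cd47 were higher in PIR+ in both genotypes. After scaling Gypc was no longer called in KO (adjusted p = 0.0733). Many of these genes are also expressed outside the red cell lineage.

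The genes most like Hba-a1 over the 12 libraries, by Pearson r of log2(value + 1), were Hbb-b2 at 0.99 and Hbb-b1 at 0.98, followed at a distance by Slc25a37 at 0.72, Ndufs5 at 0.71 and Ube2o at 0.70. Slc25a37 is the mitochondrial iron importer of red cell precursors. It was 14.0 to 20.1 in the 5 globin-rich libraries and 6.9 to 16.0 in the others, which overlap. Among the members, r with Hba-a1 was 0.99 for Hba-a2, 0.96 for Beta-s and 0.96 for Alas2, but -0.26 for Klf1, 0.13 for Tfrc and 0.00 for Car2. For Hbb-y the closest were Prmt5 at 0.78, Bcas2, Smad4, Gins4 and Kpna3, a likeness that rests on the single library PIR+ KO 1. For Car2 they were Ccdc47 at 0.93, Ddx18 at 0.90, Xist at 0.90, Mrpl52 at 0.90 and Malat1 at 0.89. All of these points share library and depth.

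Messages of other cells of the fetal liver were low. Summed over 17 hepatocyte and hepatoblast genes, the range was 11.8 to 30.8 in PIR+ KO, 15.9 to 29.3 in PIR- KO, 20.3 to 31.5 in PIR+ wt and 18.9 to 80.2 in PIR- wt, with the highest in PIR- wt 3. Over 8 endothelial genes it was 8.4 to 17.5, 5.3 to 12.2, 5.3 to 9.5 and 6.2 to 38.0 in the same order of groups, again highest in PIR- wt 3. Macrophage genes, of which 11 of 12 in the table were above 0 somewhere, summed to 0 to 11.3. Macrophages of the fetal liver engulf red cell nuclei. In the globin-rich libraries those sums were 6.0 in PIR+ KO 1, 0.5 in PIR- KO 1, 3.1 in PIR+ wt 3, 0 in PIR- wt 2 and 11.3 in PIR- wt 3. Megakaryocyte genes, 3 of 10 of them at 0 throughout, summed to 12.6 to 20.6 in PIR+ KO, 1.1 to 2.9 in PIR- KO, 6.1 to 15.8 in PIR+ wt and 1.6 to 5.6 in PIR- wt. Mast cell and basophil genes, 7 of 9 at 0 throughout, summed to at most 15.2. The part of any of these cells in the globin values was not tested.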

How the data were processed

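The deposited table holds a normalized signal per gene and library: molecule counts that the authors scaled and rounded to 1 decimal. TopHat2, DESeq2 and the build mm10 are named in the submitters' processing notes, while the sources used here do not give versions, the counting tool, filters or how the spike-ins entered. Between 93.0% and 94.2% of the values under 15 lay within 0.055 of a whole number of steps, so whole reads were not recovered. The steps correspond to 208195 to 442533 molecules per library, which limits the low genes. Beside the values stand 2 columns of p-values from the authors. The libraries carry ERCC spike-ins, per the labels, and no 2 libraries had equal values.

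Groups were taken from the titles. limma 3.58.1 (R 4.3.3) with a trended prior was fitted to log2(value + 1) over 4 group means, for the 4542 genes that reached 10 in 3 or more libraries. Calls were made at 0.05 after Benjamini-Hochberg adjustment. A fold change on this scale understates that of low genes. Limits of error given as SE come from this fit. The members, the gene lists and the named genes were chosen with earlier results of these data known: all 10 members, list genes that were called or highest in level, and the 5 genes most like Hba-a1, Hbb-y and Car2. Alternatives changed the added constant, filter, scaling, libraries and design. The robust prior, each gene's own spread, the fit without 5 libraries and the term for agreement of title and markers field were added after seeing the data. The fit was tested on simulated data over 4542 genes, drawn for the KO comparison in PIR+. It found 9.4% of 1.5-fold, 45.1% of 2-fold and 97% of 4-fold changes, with 5.46% false among the calls. The simulated libraries shared the same scale and dispersion, with no shift between the PIR subsets. These rates therefore need not hold for the deposited values, whose libraries differ in scale. Whether these rates hold for the adult globins, with SDs of 2.46 to 2.81 between libraries of the same group, was not tested. Some results are not reported here. Promoters came from the RefSeq table of GRCm38.p6. Python 3.11.15 with matplotlib 3.10.9 made the figures.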

Additional observations from a re-analysis of the deposited data

Results flagged for a closer look

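The difference between the knockout's effects in the PIR subsets passed the threshold narrowly for Beta-s and Tfrc, in a test of the difference itself, and depended on the setting. Beta-s was called in 11 of 26 settings, not with a robust prior (limma adjusted p = 0.981), and Tfrc in 9 of 27. For Beta-s, the effect in PIR+ cells minus that in PIR- cells was 3.59 on the log2 scale (limma adjusted p = 0.0483). Beta-s was 298.9, 14.0 and 55.8 in PIR+ KO, against 5.1, 7.9 and 531.5 in PIR+ wt, and 820.2, 14.6 and 18.4 in PIR- KO, against 77.4, 780.2 and 793.3 in PIR- wt, so 1 or 2 globin-rich libraries stood in every group. For Tfrc, it was -1.29 (limma adjusted p = 0.0498), with all 3 PIR+ KO libraries below all PIR+ wt libraries and all 3 PIR- KO libraries above all PIR- wt libraries.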

How the results depend on the processing

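The counts of members called, of 5 tested, moved with several settings, and the cause was not tested. A count can also hold while the member called changes. For KO against wild type in PIR+, the fit to only the 6 libraries compared gave 1 again. That member was higher in KO, and Tfrc, lower in every setting, was not called there. For PIR+ against PIR- in wild type, 3 became 0 with no minimum value (10 members then entered), with a robust prior and with each gene's own spread, also beside a term for agreement of title and markers field, and ran from 3 to 4 with 1 library left out. Between KO subsets, 2 became 5 with that term and 1 with that term and each gene's own spread, and 2 to 4 with 1 library left out. For KO against wild type in PIR+, 1 became 0 with an added constant of 0.1, no minimum, the label day as a term, own spread, and the agreement term with and without own spread (0 to 2 with 1 library left out). In PIR-, 3 became 0 with the constant 0.1, no minimum, either scaling, only the 6 libraries compared, the robust prior, own spread and own spread with the agreement term, and 1 with the agreement term alone (0 to 3 with 1 library left out). For the interaction, 2 became 0 with the constant 0.1, no minimum, own spread and the agreement term with and without it, 1 with a value of 10 in 6 libraries, either scaling and the robust prior, and 4 with the constant 10 (0 to 3 with 1 library left out). For day, 0 became 1 with the constant 10 (0 to 3). Replicate numbers did not pair the libraries: deviations of same-numbered libraries correlated at -0.106 to 0.162, those of others at -0.125 to 0.18. With a replicate block, 0 members in place of 3 were called for KO in PIR- and 1 in place of 2 for the interaction.

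Over all 4542 genes, calls for PIR+ against PIR- in wild type numbered 2015, against 1025 and 1069 with the scalings, 1053 in the 6 libraries where title and markers field agree, 700 without the 5 globin-rich ones and 1125 with the agreement term and own spread. In KO there were 1158, against 710, 722, 576 without the 5, 715 with own spread and 608 with the term too. For KO in PIR+ there were 41, against 62 with the block, 27 without the 5 and 4 with own spread, with or without the term. For KO in PIR- there were 59, against 38 with the constant 10, 31 with no minimum, 105 in the 6, 209 with the block, 28 from the libraries compared, 35 without the 5 and 6 with own spread (0 with the term too). For the interaction there were 26, against 3 with no minimum, 10 in the 6, 6 without the 5, 1 with own spread, 15 with the term and 0 with both.

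Signs turned for Tfrc in wild type, to -0.41 and -0.34 with median-of-ratios scaling and scaling to the sum without globins. For PIR+ against PIR- in KO, Hba-a2 turned to 0.04 in the 6 libraries where title and markers field agree, and Beta-s to -0.08 with the constant 10, -0.38 and -0.33 with the scalings and -1.26 with the agreement term. For KO in PIR+, Hba-a2 turned to 0.30 in those 6 libraries and 0.05 with the day term, and with the agreement term Hba-a1 was -1.13 and Beta-s -0.23. Car2 for KO in PIR- turned to 0.50 in those 6 libraries and without the 5 globin-rich ones, and the Hba-a1 interaction to -0.13 with the agreement term. With 1 library left out, the values that include a turn ran between KO subsets from -2.09 to 1.21 for Hba-a1, -2.10 to 1.09 for Hba-a2 and -1.11 to 1.87 for Beta-s. For KO in PIR+ they ran from -1.48 to 1.83, -1.64 to 1.35 and -0.12 to 3.11 for the same genes, and for Car2 and KO in PIR- from -0.51 to 0.20. For day they ran from -1.92 to 1.42, -2.02 to 1.06 and -2.88 to 1.03 for the globins and from -0.34 to 0.16 for Car2. Mean globin sums ran from 58.05 to 971.8 in PIR+ KO, 47.35 to 930.6 in PIR- KO, 29.15 to 584.4 in PIR+ wt and 996.2 to 1830 in PIR- wt. The day comparison could not be fitted in the 6 libraries where title and markers field agree. Members under 10 in most libraries, such as Klf1 and Alas2, rest on a few molecules each.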
